A study of Saccharomyces cerevisiae with 14 samples.

Results

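The PB1 TAF1 construct strain was set against the null strain of the same budding yeast study, with the pair defined by the array titles and not by any measured value. PB1 was strain yjdi361 and null was strain yjdi381. Each was hybridised on 2 arrays, so 4 of the 14 arrays of the series carried the comparison. The comparison asks which transcripts differ between the PB1 strain and the null strain. Any other genotype difference between these strains cannot be told apart from what the PB1 form of TAF1 supplies. On every strain array the second dye held RNA of a shared reference strain, yjdi363, and a value is the log2 ratio of strain to reference. Array 1 carried the strain RNA in Cy5 and array 2 carried it in Cy3. The labels give the strains by these names alone. They do not spell out the genotypes, the code PB1, what the null strain carries, or whether the 2 arrays of a strain came from separate cultures, and the p-values below therefore reflect array-to-array spread that could be purely technical. All strains and the reference were grown in leucine dropout medium with 3% raffinose to an OD600 of 0.7, induced with 2% galactose for 30 min at 25 °C, and moved to 37 °C for 45 min. The galactose step induced the TAF1 forms, and both the galactose and the heat were shared by PB1, null and the reference. The other strains used below were FHT-WT1 (yjdi353), whose name holds the wild type, and the constructs DT1 (yjdi355), TF1 (yjdi357) and HT4 (yjdi359), each also on 2 arrays.

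TAF1 is the scaffold subunit of TFIID, the general factor that brings the TATA-binding protein to core promoters and helps to seat RNA polymerase II. Most yeast genes can use TFIID, ribosomal protein genes being the textbook case, while many stress-induced genes with a TATA box rely more on SAGA, a coactivator that shares some TAF subunits with TFIID. A shift to higher temperature induces chaperone genes through the activator Hsf1, and amino acid shortage induces biosynthetic genes through Gcn4.

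Each array gave a value for 6935 to 6971 of its 7056 features, and 5536 named genes had a value in all of the strain arrays. The small number of arrays limits the precision here. Each array was centred on its median over named genes, because the 2 null arrays differed in their medians before centring (0.41 and -0.18, against 0.03 and 0.21 for PB1). Over all genes (not independent of each other) the PB1 arrays correlated at r = 0.596 and the null arrays at 0.509. PB1 and null arrays of the same dye orientation correlated more closely, at 0.678 and 0.684. Dye orientation entered the fit as a term. The cell type of a culture cannot be read from a ratio, and the alpha-cell markers STE3 and MF(ALPHA)1 only show that the strains lay below the reference, at -1.95 and -2.08 (STE3) and -2.86 and -2.99 (MF(ALPHA)1) on the PB1 arrays.

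TAF1 RNA separated the strains. It lay at -0.65 and -0.43 on the PB1 arrays and at -3.52 and -3.46 on the null arrays. In a whole culture, fewer cells making a transcript and less of it per cell cannot be told apart. Both PB1 values were far above both null values, and the FHT-WT1 values were -0.06 and -0.63. The difference, PB1 minus null, was 2.95 ± 0.22 (SE, n = 2 arrays a strain), or 7.74-fold (limma with Benjamini-Hochberg adjustment, adjusted p = 0.000126). The deposited table does not state which way the ratios run. They were read as strain over reference because TAF1 was then low in the null strain, so the direction of TAF1 is assumed, and every rise and fall below rests on it. PB1 did not pass the test against FHT-WT1 for TAF1 RNA (-0.19 ± 0.22, limma adjusted p = 0.631). The arrays measured RNA, and TAF1 protein was not analysed here.

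Few other transcripts passed the test. At an adjusted p under 0.05, 48 of 5536 genes were called, which is 0.867% of those tested. Of these, 22 genes rose in PB1 relative to null (0.397%) and 26 fell (0.47%). At an unadjusted p under 0.05 there were 867 genes, 426 higher and 441 lower. The median SE of a difference was 0.13, and 95.7% of genes lay within 0.5 of 0. In all 48 called genes the PB1 values did not overlap the null values. Such separation occurred in 13.6% of all genes upward and in 14.8% downward. Between the dye orientations the gene-by-gene differences correlated weakly (Pearson r = 0.231, Spearman rho = 0.179 across genes), and 55.8% of genes had the same sign in both. Only 3 genes were at least 2-fold higher in both orientations and 2 were at least 2-fold lower. These counts depended on single arrays. Without PB1 array 1 or without null array 2, 8 genes were called, and the count was 13 without either TF1 array and 20 without either DT1 array. With arrays also scaled by their spread, 3 genes rose and 2 fell, and with quantile normalisation 2 rose and 2 fell.

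**Figure D1:**
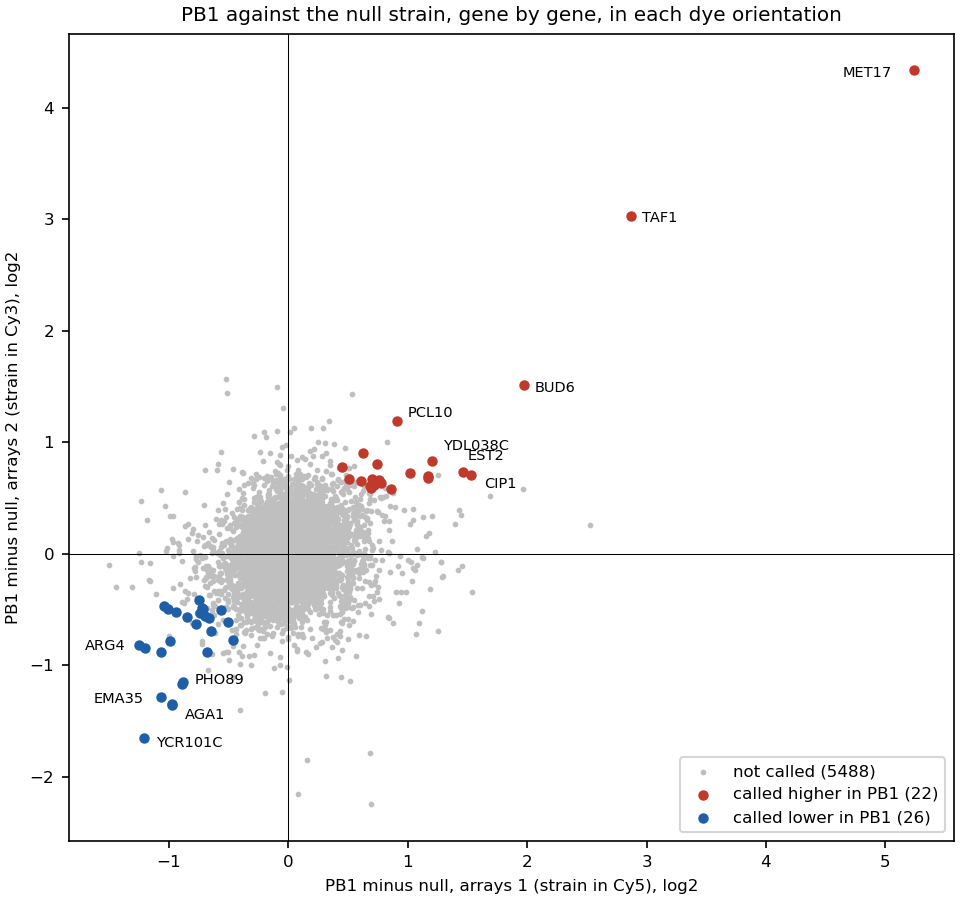
Each point is 1 of the 5536 genes, placed by its PB1 minus null difference (log2) on arrays 1 (horizontal axis, strain in Cy5) and on arrays 2 (vertical axis, strain in Cy3). The 22 genes called higher are red and the 26 called lower are blue, and MET17, TAF1 and BUD6 lie apart from the cloud at the upper right.

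MET17, an auxotrophic marker gene, had the largest rise. It encodes the O-acetylhomoserine sulfhydrylase that fixes sulfide into homocysteine. It read 5.30 and 4.00 on the PB1 arrays against 0.07 and -0.34 on the null arrays. The null values were close to those of FHT-WT1 (0.07 and -0.39), and the PB1 values stood apart from both. The difference was 4.79 ± 0.22, or 27.6-fold (limma adjusted p = 1.26e-06). MET17 was similarly high in the other constructs, with mean ratios of 4.89 in DT1, 4.84 in TF1 and 4.85 in HT4, and PB1 did not pass the test against their mean (-0.21 ± 0.18, limma adjusted p = 0.589). Among the other 33 genes of the sulfur and methionine list none was called, where 0.867% of all genes were. For MET17, and for BUD6 and EST2 below, strain genotype and TAF1 function cannot be told apart, because the labels give no genotypes.

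BUD6, an actin and formin regulator of polarised growth, read 2.30 and 1.50 in PB1 against 0.33 and -0.01 in null. The difference was 1.74 ± 0.23 (limma adjusted p = 0.00815). EST2, the catalytic subunit of telomerase, read 1.44 and 0.74 against -0.03 and 0.01, a difference of 1.10 ± 0.21 (limma adjusted p = 0.039). Both genes were clear of the null and FHT-WT1 values on every array. They also resembled the other constructs, where the mean ratios of BUD6 were 1.93 in DT1, 1.93 in TF1 and 1.75 in HT4, and those of EST2 were 0.75, 0.94 and 1.09. The call of BUD6 was lost without PB1 array 1 or null array 2, and that of EST2 without any 1 of 9 arrays, which were PB1 array 1 and both arrays of DT1, TF1, HT4 and null.

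EST2 and BUD6 are neighbours on chromosome XII, 13 genes along from MET17 in the order of tested genes. The 12 genes between MET17 and EST2 were not called. ACO1, next to MET17, differed by 0.04 ± 0.23, and TAD3, next to EST2, by 0.10 ± 0.16. SPH1 came closest among the 12, at 0.54 ± 0.16 (limma adjusted p = 0.159). Just outside the stretch, YLR297W (1.11 ± 0.25, limma adjusted p = 0.0767) and YLR326W (0.68 ± 0.15, limma adjusted p = 0.0716) were higher without passing the test. The called genes were therefore not a continuous block along the chromosome.

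**Figure D2:**
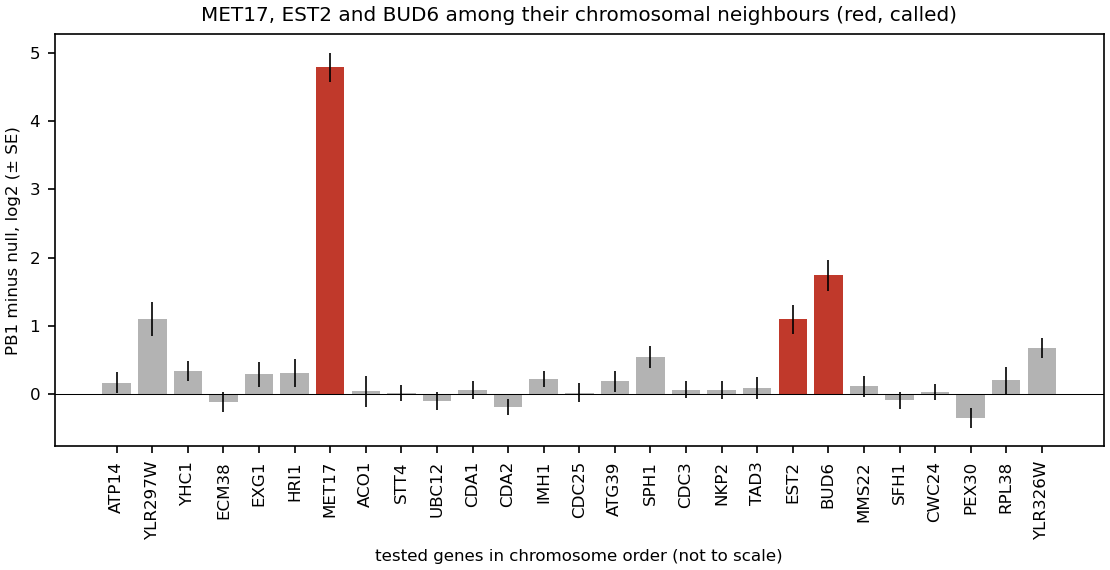
Bars give PB1 minus null (log2, bars of error are SE from the fit) for 27 tested genes in chromosome XII order, with called genes in red and equal spacing in place of distance. MET17 reaches 4.79, EST2 and BUD6 reach 1.10 and 1.74, and the genes between them, none called, lie lower, SPH1 highest at 0.54.

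Other called rises were smaller than that of BUD6. PCL10, a cyclin that directs the kinase Pho85 to glycogen synthase, read 1.14 and 0.89 in PB1 against 0.23 and -0.30 in null (1.05 ± 0.14, limma adjusted p = 0.00815). CIP1, an inhibitor of the cell cycle kinase Cdc28, read 1.77 and 1.33 against 0.24 and 0.63 (1.12 ± 0.19, limma adjusted p = 0.0293). MSN4, a zinc finger activator of stress genes, read 0.73 and 0.34 against -0.44 and -0.34 (0.93 ± 0.16, limma adjusted p = 0.0293). In each of the 3 genes both PB1 arrays were higher than both null arrays, which was part of the rule that chose them. General stress genes are the class that Msn4 is known to activate. In that list 0 of 30 genes were called, against 0.867% of all genes. The median was -0.01 (0.11 on arrays 1 and 0.08 on arrays 2), with 15 members above 0 and 15 below. At an unadjusted p under 0.05 in limma, 7 members were higher and 1 lower, against 426 and 441 of all 5536 genes. COM2, another zinc finger factor, rose by 0.93 ± 0.13 (limma adjusted p = 0.0113), from 0.05 and 0.13 in null to 1.22 and 0.83 in PB1. INM1, an inositol monophosphatase, rose by 0.87 ± 0.12 (limma adjusted p = 0.0129), and AST1, which helps to deliver the plasma membrane proton pump, by 0.77 ± 0.14 (limma adjusted p = 0.0293). CIN2, a factor in tubulin folding, rose by 0.77 ± 0.12 (limma adjusted p = 0.0211), and YDL038C, which the annotation table did not match by identifier, by 1.02 ± 0.17 (limma adjusted p = 0.0267).

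The other 10 rises were smaller, from 0.59 (NRE1) to 0.72 (SKS1, a glucose-regulated kinase). They included RRN11, a subunit of the RNA polymerase I core factor (0.71), RGS2, a regulator of glucose-sensing G protein signalling (0.69), AMN1, an antagonist of mitotic exit (0.67), and ARV1, which acts in sterol and lipid transport (0.64). FLO5 (0.63) and YRF1-6 (0.71) belong to families of near-identical genes, and their array products can bind the transcripts of relatives. These 10 rises had limma adjusted p = 0.015 to 0.0397 and were called under 6 (PIC2) to 14 (RRN11) of 22 alternatives. Leaving out 1 array at a time, PCL10 lost its call without PB1 array 1 or null array 2, COM2 without PB1 array 1 or null array 1, and INM1 without PB1 array 1 or either null array. CIP1, MSN4, YDL038C, CIN2 and AST1 each lost theirs in 5 to 10 of the 12 omissions, which included arrays of other strains.

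**Figure D3:**
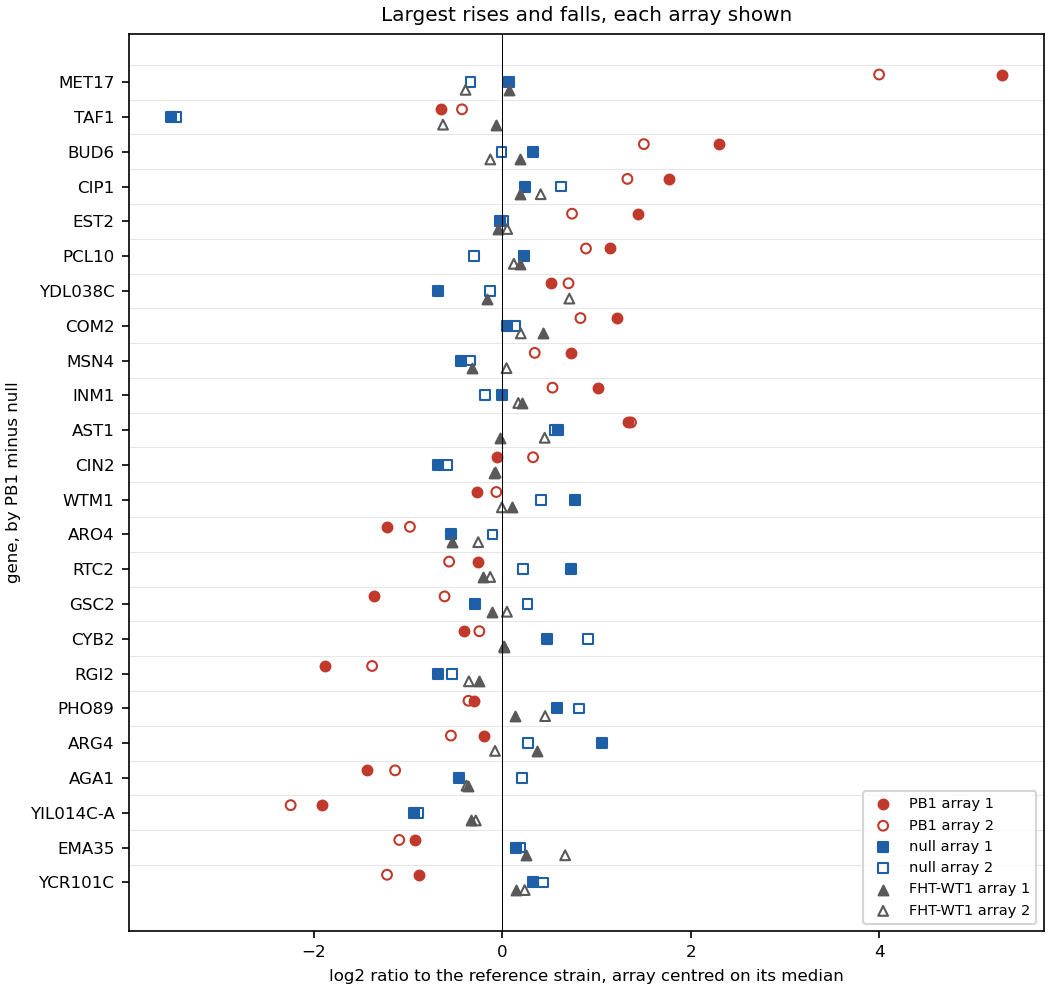
Log2 ratios to the reference (horizontal axis, arrays centred) are shown for the 12 largest rises and 12 largest falls, with PB1 as circles, null as squares and FHT-WT1 as triangles, filled for array 1 and open for array 2. Both PB1 values lie on one side of both null values in every row because the genes were chosen that way. In MET17, BUD6 and EST2 the null values lie with those of FHT-WT1.

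The largest falls were a pair of neighbouring genes near the right end of chromosome III. YCR101C, of unknown function, read -0.88 and -1.22 in PB1 against 0.33 and 0.43 in null, a difference of -1.43 ± 0.14 (limma adjusted p = 0.00128). EMA35 (YCR100C) read -0.92 and -1.09 against 0.15 and 0.19, a difference of -1.18 ± 0.16 (limma adjusted p = 0.00815). All null and FHT-WT1 values of both genes were above 0, and all PB1 values were below it. ADH7, an NADPH-dependent alcohol dehydrogenase and 3 genes further along, also fell (-0.62 ± 0.12, limma adjusted p = 0.0397). The genes around them were not called, with YCR099C at -0.41, YCR102C at -0.39, PAU3 at 0.04 and RDS1 at -0.50. The stretch was looked at after its values were seen. Over the 145 tested genes of chromosome III the median was -0.04, against 0.01 over all genes. These 3 genes were also lower in PB1 than in the mean of DT1, TF1 and HT4, by -1.28 ± 0.11 (YCR101C), -1.25 ± 0.13 (EMA35) and -0.69 ± 0.10 (ADH7), with limma adjusted p = 0.00118, 0.00174 and 0.0109. DT1 lay between, with YCR101C at -0.14 and -0.45. YCR101C kept its call whichever array was left out, EMA35 lost it without null array 2, and ADH7 was called under 7 of 22 alternatives.

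YIL014C-A, an uncharacterised gene, read -1.91 and -2.25 in PB1 against -0.94 and -0.89 in null (-1.17 ± 0.14, limma adjusted p = 0.00815). AGA1, which anchors the a-agglutinin of mating cells, read -1.43 and -1.14 against -0.46 and 0.21 (-1.16 ± 0.15, limma adjusted p = 0.00815). In YIL014C-A all 4 values were below the reference and PB1 was the lower, whereas AGA1 was above the reference on null array 2. RGI2, linked to respiratory energy metabolism, fell by 1.02 ± 0.18 (limma adjusted p = 0.0318), and WTM1, a nuclear anchor of ribonucleotide reductase, by 0.76 ± 0.14 (limma adjusted p = 0.0397). RTC2, a vacuolar transporter of basic amino acids, fell by 0.89 ± 0.17 (limma adjusted p = 0.039). AGA1 lost its call without PB1 array 1 or null array 2 and YIL014C-A without null array 2, while RGI2, WTM1 and RTC2 each lost theirs in 8 or 9 of 12 omissions. Outside the gene lists and chromosome III, 10 more genes fell, from -0.53 (YOR289W) to -0.73 (GND2, a phosphogluconate dehydrogenase). They included the ubiquitin ligase gene HUL4 (-0.67), the pyridoxine permease gene TPN1 (-0.71), the isomaltase gene IMA5 (-0.70) and the vacuolar mannosidase gene AMS1 (-0.62). Others were the peroxisomal transporter gene PXA2 (-0.63), the endocytic GTPase gene YPT53 (-0.63) and the sphingolipid synthesis gene TSC10 (-0.56), with YJR149W at -0.60. These 10 falls had limma adjusted p = 0.02 to 0.0398 and were called under 6 (YOR289W) to 11 (HUL4) of 22 alternatives.

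Amino acid synthesis held more calls than any other list. Of 48 genes in the list of amino acid synthesis outside arginine and sulfur, 4 fell (ARO4, LYS9, LYS1 and HIS4) and 0 rose, where 0.47% of all genes fell, and 44 lay below 0. In 26 of the 48 (54.2%) both PB1 arrays were below both null arrays, against 14.8% of all genes. The median was -0.34, with -0.45 on arrays 1 and -0.22 on arrays 2, against 0.01 over all genes. The list's own median ratio read -0.18 and -0.05 on the PB1 arrays, 0.27 and 0.12 on the null arrays and 0.06 and -0.04 on the FHT-WT1 arrays. PB1 was the lowest of the 3 strains and null the highest in both orientations, though on arrays 2 PB1 and FHT-WT1 were nearly level.

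ARO4, the first enzyme of aromatic amino acid synthesis, read -1.22 and -0.98 in PB1 against -0.54 and -0.10 in null (-0.78 ± 0.13, limma adjusted p = 0.0261). The lysine genes LYS9 and LYS1, which encode saccharopine dehydrogenases, fell, with differences of -0.75 ± 0.15 and -0.61 ± 0.11 (limma adjusted p = 0.0448 and 0.0313). The histidine gene HIS4 fell by 0.58 ± 0.11 (limma adjusted p = 0.0402). LYS1 lies beside NRE1, which rose. Members that did not pass the test included BAT2 of branched-chain amino acid metabolism (-0.71), LYS4 (-0.61), ILV6 (-0.60), ARO8 (-0.54) and LYS2 (-0.53). RNA of GCN4 itself, the activator of the pathway, was at 0.29 (limma adjusted p = 0.452), and Gcn4 protein was not measured. PRO1 was at 0.29. The single calls in this list depended on the array set: ARO4 lost its call in 8 of 12 omissions, LYS9 in 9, LYS1 in 10 and HIS4 in all 12, whereas the median stayed between -0.44 and -0.25.

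ARG4, argininosuccinate lyase, was the only called member of 8 tested arginine synthesis genes, where 0.47% of all genes fell. It read -0.19 and -0.55 in PB1 and 1.06 and 0.28 in null, a difference of -1.04 ± 0.13 (limma adjusted p = 0.00815) that was lost without PB1 array 1. The list median was -0.27 (-0.25 and -0.40 by orientation), 7 of 8 members were below 0, and ARG1 (-0.54) and ARG3 (-0.43) did not pass the test. In the sulfur and methionine list, the median was -0.24 and 30 of 34 genes were below 0, in contrast to MET17. MET13, a methylenetetrahydrofolate reductase, was at -0.65 (limma adjusted p = 0.0563). HOM2, of the aspartate pathway to threonine and methionine, was at -0.45 (limma adjusted p = 0.113). The sulfur list median was -0.10 on arrays 1 and -0.40 on arrays 2. Some of its genes turned sign between orientations, among them MET3, ATP sulfurylase, at 0.52 and -1.15.

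**Figure D4:**
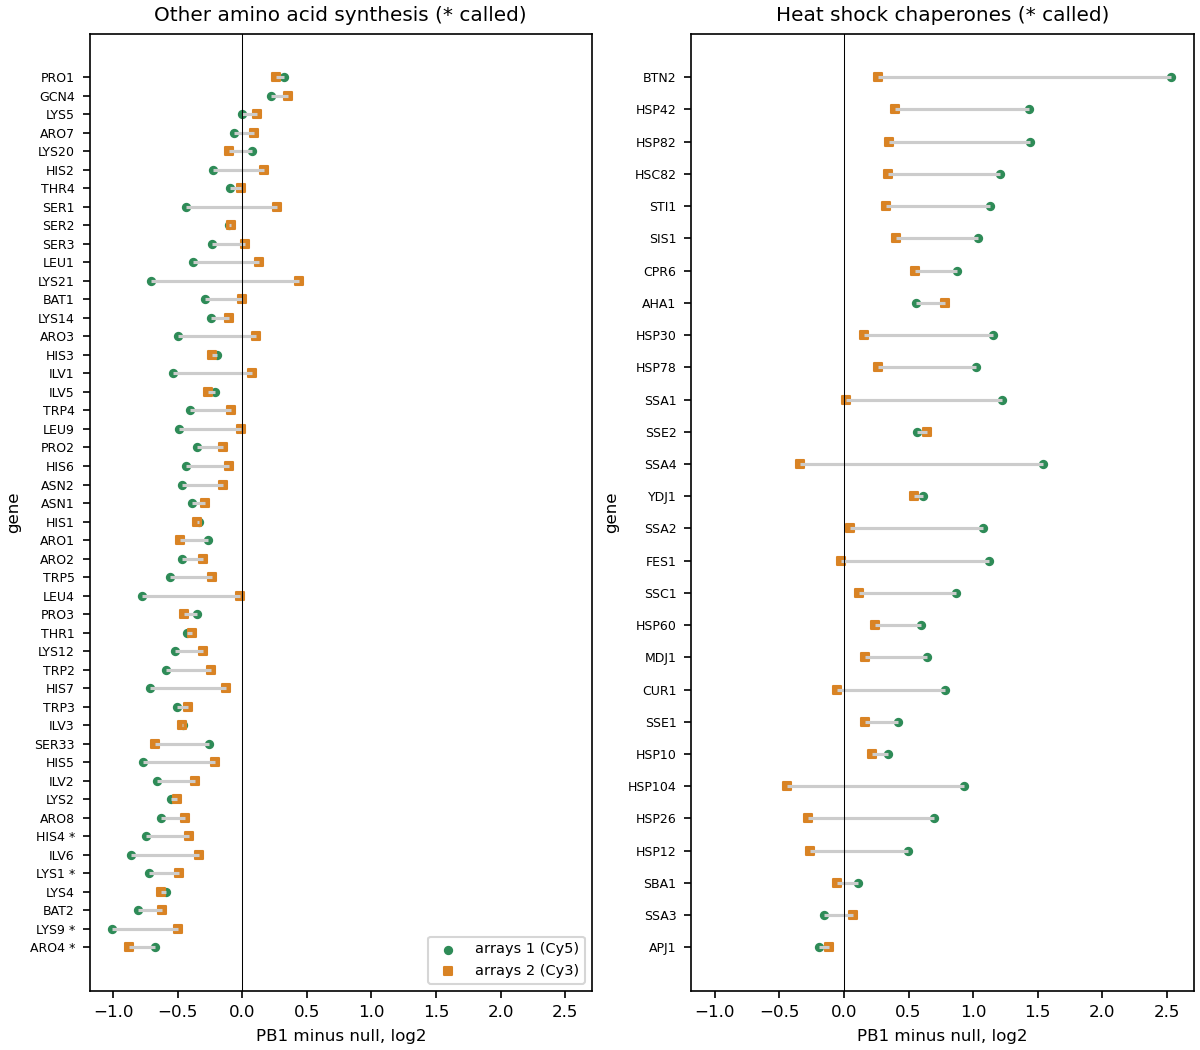
PB1 minus null (log2, horizontal axis) is shown for each gene of the amino acid synthesis list (left, 48 genes) and the heat shock chaperone list (right, 28 genes), with circles for arrays 1, squares for arrays 2 and asterisks at called genes. The left panel lies mostly below 0 in both orientations, while the right panel lies well above 0 on arrays 1 (median 0.87) and closer to 0 on arrays 2 (median 0.16).

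Heat shock chaperones had the highest median of the 31 lists, 0.57, but 0 of 28 were called, against 0.867% of all genes. At an unadjusted p under 0.05 in limma, 14 were higher and 0 lower, against 426 and 441 of all 5536 genes. In 14 of 28 (50%) both PB1 arrays were above both null arrays, against 13.6% of all genes. The list's median ratio was 1.08 and 0.26 on the PB1 arrays, 0.28 and 0.13 on the null arrays and 0.28 and 0.09 on the FHT-WT1 arrays. PB1 array 1 alone was far from the rest, and on arrays 2 the strains were close together. HSP82, an Hsp90, read 1.81 and 0.63 in PB1 and 0.37 and 0.29 in null (0.90 ± 0.28, limma adjusted p = 0.176). HSP42, a small heat shock protein, read 1.85 and 1.13 against 0.42 and 0.74 (0.91 ± 0.27, limma adjusted p = 0.158). BTN2, a sorting factor for misfolded proteins, read 3.03 and 1.44 against 0.50 and 1.18 (1.39 ± 0.43, limma adjusted p = 0.171). The 2 orientations of BTN2 gave 2.53 and 0.26. The Hsp70 gene SSA4 (1.54 and -0.34) and the disaggregase gene HSP104 (0.93 and -0.44) had opposite signs in the 2 orientations. HT4 array 1 also had a high chaperone median (1.18), and PB1 minus the mean of DT1, TF1 and HT4 had a list median of 0.35 with 0 calls. Against FHT-WT1, 7 of the 28 were called higher in PB1, where 2.35% of all genes were higher. In null 0 were called higher, where 1.57% of all genes were, and 1 was called lower. The difference between these list counts was not tested, and PB1 minus FHT-WT1 called 36 genes in all with arrays scaled by their spread.

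Ribosomal protein genes, the textbook class of TFIID-dependent genes, did not pass the test in any of 135 cases, where 0.867% of all genes were called. At an unadjusted p under 0.05 in limma, 21 were higher and 0 lower, against 426 and 441 of all 5536 genes. In 26 of the 135 (19.3%) both PB1 arrays were above both null arrays, against 13.6% of all genes. Of the 135, 119 lay above 0 and 16 below. Their differences ran from -0.15 to 0.49 with a median of 0.17, and the median was -0.08 on arrays 1 and 0.43 on arrays 2. The list's median ratio was -0.62 and -0.35 on the PB1 arrays, -0.54 and -0.76 on the null arrays and -0.15 and -0.27 on the FHT-WT1 arrays. Both strains therefore sat below FHT-WT1 in both orientations, while their order relative to each other differed between arrays 1 and arrays 2. Dye and other differences between these arrays cannot be told apart. The members with the largest statistics were RPL37A (0.47), RPL36A (0.45), RPS26B (0.43) and RPS21A (0.38), with limma adjusted p = 0.112 to 0.152. Paralogous ribosomal protein genes can share signal on these arrays. Against FHT-WT1, 5 of the 135 fell in PB1, where 3.92% of all genes fell, and 27 in null, where 3.31% of all genes fell. The null contrast called 1 gene in all without null array 2 and 5 with arrays scaled by their spread, and the difference between the list counts was not tested. Ribosome biogenesis (median 0.05), RNA polymerase I and III (0.04), translation factors (-0.02) and mitochondrial ribosomal proteins (0.07) had no called member, although RRN11 outside the lists rose.

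Carbon and mineral genes contributed single calls. Over all genes 0.867% were called, and at that share lists this short would hold few calls or none. CYB2, the lactate dehydrogenase of mitochondria, read -0.41 and -0.24 in PB1 against 0.47 and 0.91 in null (-1.02 ± 0.15, limma adjusted p = 0.0172). It was the only call among 29 genes of the TCA and glyoxylate list, whose median was -0.23 but turned from 0.06 on arrays 1 to -0.41 on arrays 2. PYC2, a pyruvate carboxylase (-0.50, limma adjusted p = 0.0716), the malate synthase gene MLS1 (-0.59, limma adjusted p = 0.0743) and the gluconeogenic gene FBP1 (-0.65, limma adjusted p = 0.0891) missed the threshold. PHO89, a sodium and phosphate symporter, read -0.30 and -0.36 against 0.58 and 0.81 (-1.03 ± 0.18, limma adjusted p = 0.0293), and was the only call among 22 phosphate genes (median -0.10). GSC2, a glucan synthase of stressed cells, read -1.36 and -0.61 against -0.29 and 0.27 (-0.97 ± 0.17, limma adjusted p = 0.0301), and was the only call among 35 cell wall genes (median 0.05). CYB2 lost its call without PB1 array 1 or null array 2, and PHO89 and GSC2 each in 7 of 12 omissions. In the galactose regulon PCL10 was the only call of 11 genes. GAL1 (-0.32), GAL2 (-0.52) and GAL3 (-0.45), a kinase, a permease and a sensor of galactose use, did not pass the test. Nitrogen catabolite genes had a median of -0.23 (-0.35 on arrays 1 and -0.03 on arrays 2) and 0 calls of 33. Glycolytic genes had a median of 0.06 and 0 calls of 22, respiratory chain genes 0.05 and 0 of 35, and hexose transporters -0.08 and 0 of 18.

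Apart from TAF1, the transcription machinery lists held no call, where 0.867% of all genes were called. At that share, lists this short would hold few calls or none. None of 15 tested TFIID partners of TAF1 was called, and they lay between -0.11 and 0.26 with a median of 0.07. TAF13 (0.26), TAF4 (0.20), TAF12 (0.17) and the TATA-binding protein gene SPT15 (0.17) had the largest statistics, with limma adjusted p = 0.387 to 0.547. None of 14 SAGA subunits was called (median 0.05). SGF29 stood out only through PB1 array 2, where it read 1.88 against -0.27 on PB1 array 1. Among 31 RNA polymerase II and general factors, 0 were called and the median was 0.11, with 26 members above 0 and 5 below. In 10 of the 31 (32.3%) both PB1 arrays were above both null arrays, against 13.6% of all genes. CCL1, a cyclin of TFIIH (0.60, limma adjusted p = 0.0828), and BUR6, a subunit of the repressor NC2 (0.57, limma adjusted p = 0.156), were the highest, with NCB2, the partner of BUR6, at 0.31.

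Mating genes held 1 call, where 0.867% of all genes were called. The 5 alpha-specific genes were all below 0, with a median of -0.54 and 0 called. STE3, the a-factor receptor, read -1.95 and -2.08 in PB1 against -1.55 and -1.16 in null (-0.66 ± 0.24, limma adjusted p = 0.24). With 1 array left out the list median moved between -0.86 and -0.20. Among 23 a-specific and pheromone response genes AGA1 was the only call, and FUS1, a cell fusion gene, was at -0.54 (limma adjusted p = 0.0985). MATALPHA2, a mating-type repressor, was at 0.57 (limma adjusted p = 0.134). Histones (median 0.11), cyclins and cell cycle regulators (0.07, a list without PCL10), the proteasome (0.06), ergosterol synthesis (-0.10), iron and copper uptake (-0.03), redox genes (-0.06) and osmotic response (-0.06) had no called member. Of 10 auxotrophic marker genes only MET17 was called. LEU2, selected for by the medium, was at 0.10, URA3 at 0.14, TRP1 at 0.15 and HIS3 at -0.21.

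**Figure D5:**
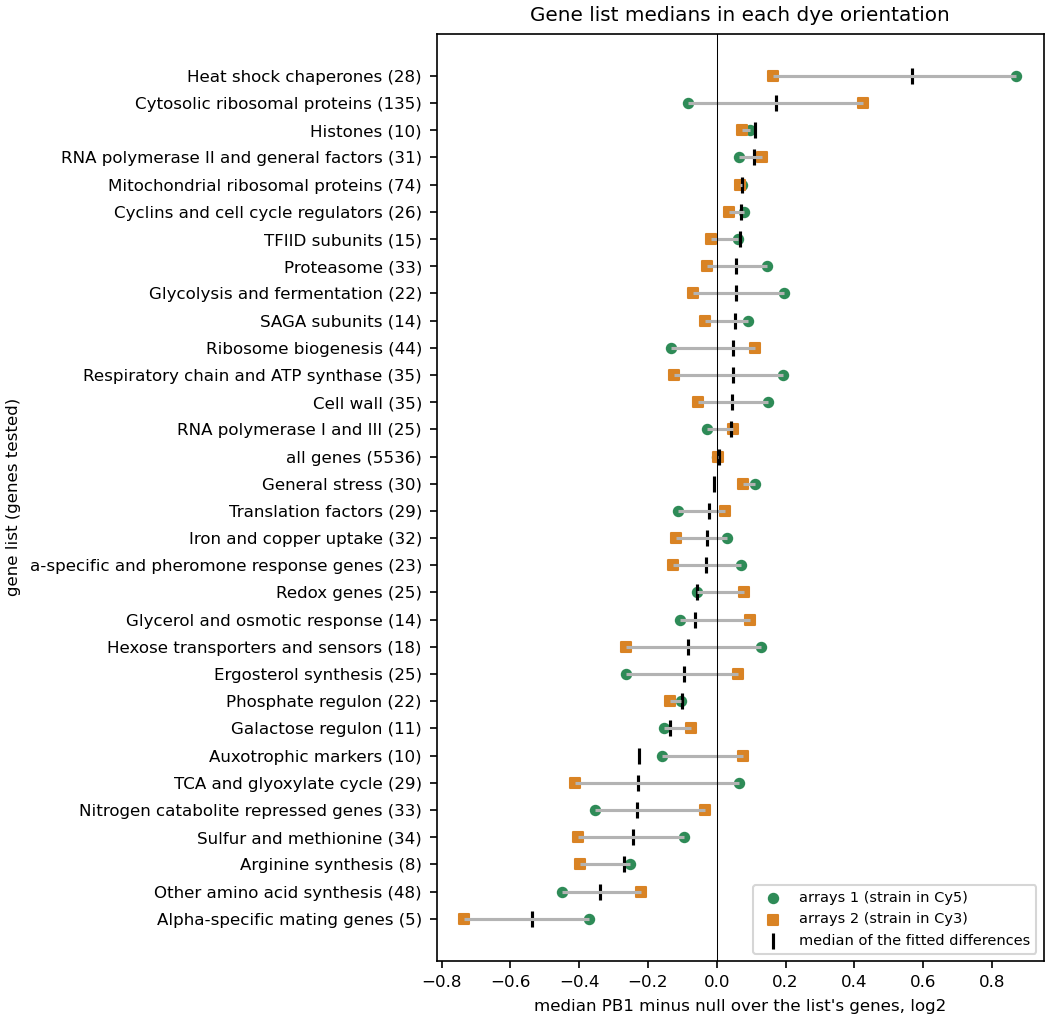
Median PB1 minus null (log2, horizontal axis) is given for each gene list, with circles for arrays 1, squares for arrays 2 and ticks for the median of the fitted differences, and the number of genes tested in parentheses. Amino acid and arginine synthesis are below 0 in both orientations. So are the sulfur and methionine, nitrogen catabolite, phosphate, galactose and alpha-specific lists, the last with the lowest median (-0.54). Heat shock chaperones are above 0 in both but unequally, and ribosomal proteins change sign between orientations.

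PB1 was also set against the mean of DT1, TF1 and HT4 in the same fit. This contrast shares the PB1 arrays with PB1 minus null, so the values are given side by side. It called 45 genes (0.813%), 18 higher (0.325%) and 27 lower (0.488%). With the arrays as deposited it called 83 higher and 13 lower, and with arrays scaled by their spread 1 higher and 10 lower. Without PB1 array 1 it called 5 genes, without PB1 array 2 it called 122, and without 1 of the DT1, TF1 or HT4 arrays it called 13 to 20. Of the genes above, CIP1 (0.99 ± 0.16), PCL10 (0.69 ± 0.11), COM2 (0.63 ± 0.11) and CIN2 (0.62 ± 0.10) were also higher in PB1 than in the mean of the other constructs, with limma adjusted p = 0.0252, 0.0268, 0.027 and 0.0252. So were PIC2 (0.54 ± 0.10) and AMN1 (0.53 ± 0.10), with limma adjusted p = 0.0384 and 0.0324. In COM2 the HT4 values (0.90 and 0.69) overlapped those of PB1 (1.22 and 0.83). YIL014C-A (-1.25 ± 0.12), AGA1 (-1.13 ± 0.12), GSC2 (-0.99 ± 0.14), HIS4 (-0.70 ± 0.09), ARG4 (-0.68 ± 0.11) and CYB2 (-0.65 ± 0.13) were lower than that mean, with limma adjusted p = 0.00118, 0.00183, 0.0109, 0.00816, 0.0252 and 0.0457. So were GND2 (-1.06 ± 0.12), YOR289W (-0.59 ± 0.08), YJR149W (-0.55 ± 0.09) and IMA5 (-0.48 ± 0.09), with limma adjusted p = 0.00183, 0.0109, 0.0306 and 0.0483. The chromosome III genes are given above. MSN4 (0.56 ± 0.13) and ARO4 (-0.41 ± 0.10) did not pass this test (limma adjusted p = 0.0767 and 0.0858). TAF1 (0.03 ± 0.18), MET17, BUD6 (0.03 ± 0.19) and EST2 (0.16 ± 0.17) did not pass it either. SNZ1, a vitamin B6 synthesis gene, was lower than in the other constructs (-1.19 ± 0.17, limma adjusted p = 0.0109), but not called against null (-0.70 ± 0.20, limma adjusted p = 0.157). The maltase gene MAL12 (1.29 ± 0.22, limma adjusted p = 0.0287) was higher than in the other constructs, and at 0.67 ± 0.27 not called against null (limma adjusted p = 0.268), where the 2 null arrays read -0.87 and 0.27.

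PB1 and null were each set against FHT-WT1. PB1 minus FHT-WT1 called 347 genes (6.27%), 130 higher (2.35%) and 217 lower (3.92%). Null minus FHT-WT1 called 270 (4.88%), 87 higher (1.57%) and 183 lower (3.31%). The FHT-WT1 arrays are shared by both contrasts, and they did not correlate with each other across genes (r = -0.0059). Without FHT-WT1 array 1 the counts were 121 and 73, without FHT-WT1 array 2 they were 183 and 19, and null minus FHT-WT1 called 1 gene without null array 2 and 8 without either TF1 array, fewer than the 8 and 13 of PB1 minus null. For single genes the position of FHT-WT1 differed. TAF1 was lower in null than in FHT-WT1 (-3.14 ± 0.22). MET17 (4.81 ± 0.22), BUD6 (1.87 ± 0.23) and CIP1 (1.25 ± 0.19) were higher in PB1 than in FHT-WT1, and none of these 3 was called in null. YIL014C-A fell in both strains (-1.77 ± 0.14 in PB1 and -0.61 ± 0.14 in null). CYB2 and LYS1 were called in null (0.67 ± 0.15 and 0.58 ± 0.11) and not in PB1 (-0.34 ± 0.15 and -0.03 ± 0.11). ARG4 was called in PB1 (-0.51 ± 0.13, limma adjusted p = 0.0491) and was at 0.53 ± 0.13 in null (limma adjusted p = 0.051). In these 3 genes null lay above FHT-WT1 and PB1 below it, and in LYS1 the PB1 side was close to 0.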

How the data were processed

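The deposited table holds log2 ratios of the 2 channels for 14 arrays, with the direction not stated. According to the series text, the authors mode-normalised the dye swaps in R and corrected them with B. subtilis spikes. Of 7056 features, 5579 carried a gene name, giving 5548 genes (5543 matched R64 by identifier, used for names and gene order only). Features of a gene were averaged (30 genes), and 12 genes lacking a value were left out.

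Each array was centred on its median. A linear model of the 12 arrays of 6 strains, with a dye term, used limma (version 3.58.1, under R version 4.3.3), and its lmFit and eBayes steps gave 5 residual and 5.84 prior degrees of freedom. Benjamini-Hochberg adjustment ran over 5536 genes, two-sided, with a threshold of 0.05. The fit was tested on simulated data. The homotypic pair was left out because its orientation is not given. Replicate numbers are in accession order and coincide with dye orientation. Deviations from strain means correlated between same-orientation arrays in all 15 strain pairs (0.315 to 0.613; PB1 with null 0.444).

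Named were TAF1, the 12 largest called rises and 12 largest falls with 1 sign in all array pairings, up to 4 genes a list, auxotrophic markers, neighbours of a called marker, and 5 rises and 5 falls against the other constructs. Other called genes and the chromosome III stretch were named after their values were seen. The comparison and the lists were chosen with earlier results of these data known. Alternatives changed centring, scaling, arrays, dye term, title-number block, filter and prior. The labels do not explain the leading number of each array title. The correlation within a number was 0.458 in the block alternative. PB1 and null arrays share no such number, so a difference between these strains and one between title numbers cannot be told apart. No promoter sequence was used, so a planned motif count was not run.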

Additional observations from a re-analysis of the deposited data

Results flagged for a closer look

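The difference between PB1 and the mean of DT1, TF1 and HT4, tested as a contrast in limma with Benjamini-Hochberg adjustment, marked 45 genes. The 5 largest called rises and 5 largest called falls were singled out by rule because they show where the construct strains differed from each other. MAL12, a maltase gene, was higher in PB1 by 1.29, REE1, a regulator of enolase, by 1.13, TDA6 by 1.12, CIP1, a cell cycle kinase inhibitor, by 0.99 and YIR042C by 0.93. Of these 5, CIP1 alone was also called against the null strain, and TDA6 came close (1.27, limma adjusted p = 0.0553). REE1 read 1.22 on PB1 array 1 and 0.12 on PB1 array 2. YIR042C read 0.39 and 0.12 in PB1, with HT4 near it (-0.04 and -0.07) and DT1 far below (-1.29 and -1.68). YCR101C (-1.28), EMA35 (-1.25), YIL014C-A (-1.25), SNZ1 (-1.19) and AGA1 (-1.13) were lower, and of these SNZ1 was not called against null. MAL12 has a near-identical relative whose transcript can bind the same array product.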

How the results depend on the processing

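Of the 48 genes called in PB1 minus null, 3 (MET17, TAF1 and YCR101C) kept their call in each of the 22 alternatives. All 48 kept their sign, which says little because called genes already had 1 sign in all array pairings. The TAF1 difference ran from 2.09 to 3.02 under the settings and from 2.60 to 3.30 with 1 array left out, called throughout. The number of called genes moved. As deposited it was 22 for PB1 minus null, 96 for PB1 minus the mean of DT1, TF1 and HT4, 86 (57 higher, 29 lower) for PB1 minus FHT-WT1 and 36 (28 higher, 8 lower) for null minus FHT-WT1. With arrays scaled by their spread it was 5, 11, 36 (6 higher, 30 lower) and 5 (3 higher, 2 lower), and with quantile normalisation 4, 11 (1 higher, 10 lower), 38 (10 higher, 28 lower) and 7 (4 higher, 3 lower). Without the dye term, that is with no replicate block, it was 4, 3, 36 and 1, in the same order. Leaving out 1 array at a time gave 8 to 58, 5 to 122, 121 to 484 and 1 to 521 calls, the last being 1 without null array 2 and 8 without either TF1 array. The 4 PB1 and null arrays alone called 33 genes, 23 of them among the 48. The other settings, namely the homotypic pair, no FHT-WT1 pair, the title number as a random block, the filter and the robust prior, stayed within 1.5 times and called 35 to 64 genes in PB1 minus null. With 1 array left out, the heat shock median ran from 0.24 to 0.73 and the TCA and glyoxylate median from -0.38 to 0.08. When an array was left out, the lone array of its strain was assumed to vary like the other strains. With 2 arrays a strain, no difference under 0.53 was called in PB1 minus null.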

Other observations

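EST2 with BUD6, EMA35 with YCR101C, and LYS1 with NRE1 were the adjacent pairs in which both genes were called in PB1 minus null, and LYS1 and NRE1 went opposite ways (-0.61 and 0.59). TDA6, PB1 arrays 2.00 and 0.98 against 0.04 and 0.40 in null, was among the largest differences that missed the threshold (1.27 ± 0.26). GPP2, glycerol phosphatase, was at 0.68 (limma adjusted p = 0.0848), TIS11, an mRNA decay factor of iron shortage, at -0.52 (limma adjusted p = 0.0781), and CWP1, a cell wall mannoprotein gene, at -0.66 (limma adjusted p = 0.158).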
